A study of Caenorhabditis elegans with 9 samples.

Results

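The fbxa and fbxc genes are the A and C groups of the F-box gene family of the nematode Caenorhabditis elegans. They were taken as the probe sets whose single annotated gene symbol is fbxa- or fbxc- followed by a number, with the probe set of highest mean signal standing for a gene that has several. This gave 215 genes, 171 fbxa and 44 fbxc, of the 17118 genes that a probe set with 1 symbol measured. Gene expression was measured on Affymetrix arrays in 3 genotypes of first-stage (L1) larvae, with 3 arrays each that the labels call biological replicates. The genotypes were wild type, the ogt-1 mutant, ogt-1(ok430), and the oga-1 mutant, oga-1(ok1207). In all 3 groups, embryos freed by bleach hatched in buffer without food for 48 h, and the larvae then fed on Escherichia coli OP50 for 3 h. Each mutant is represented by 1 allele. RNA came from whole larvae, in which fewer cells of a type and less RNA per cell cannot be told apart.

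An F-box protein is the part of an SCF ubiquitin ligase that recognises the substrate. In that complex a cullin scaffold holds a RING protein, which brings the ubiquitin-conjugating enzyme, and a Skp1-related adaptor, which binds the F-box. C. elegans has an unusually large set of F-box genes, many of them next to each other on the chromosomes, and an expanded set of Skp1-related (skr) genes. The substrates of most FBXA and FBXC proteins are not known. OGT-1 attaches O-GlcNAc, a single sugar, to serines and threonines of nuclear and cytoplasmic proteins, and OGA-1 removes it.

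The deposited values are log2 signals of 22548 probe sets that are not array controls, already on 1 scale, with array medians that differed little between groups. The correlation between arrays was 0.992 to 0.997 within a group and 0.985 to 0.995 between groups. The oga-1 signals were lower in the oga-1 mutant: the brightest of its probe sets read 9.31, 9.54 and 9.63 in wild type and 8.63, 8.74 and 8.88 in the oga-1 mutant. Signals for ogt-1 itself were not lower in the ogt-1 mutant. The brighter ogt-1 probe set gave 10.87, 10.76 and 10.94 in wild type and 11.43, 11.43 and 11.17 in the ogt-1 mutant, and the other was called higher there (limma adjusted p = 0.0141). The sources used here do not place these probes inside or outside the ok430 deletion, so they check nothing, and every direction given for the arrays labelled ogt-1 mutant rests on their labels. Markers of muscle (lowest mean 11.2), intestine (8.59) and neurons (8.84) were bright. Of the 3 epidermal markers, 1 reached the overall median and the others averaged 6.46 and 6.59.

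Among the fbxa and fbxc genes most signals were low. The median of the members' means over the 9 arrays was 5.75 on the log2 scale, with quartiles of 4.89 and 6.91 and a range of 4.04 to 10.04. Over all probe sets the median was 7.45 and the quartiles were 5.67 and 9.36. Of the 215 members, 36 (16.7%) were at or above the overall median and 105 (48.8%) were below the lower quartile, where 25% of all probe sets lie. The 171 fbxa and 44 fbxc genes had similar medians, of 5.75 and 5.79. The array carries probe sets for yeast and Bacillus genes that worms do not have, and 8 of them had means of 4.06 to 5.90. The means of 113 members were below the highest of these and those of 102 were at or above it. These 8 control probe sets were chosen after their values were seen. They set no detection limit for another probe set, since each probe set has its own affinity.

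**Figure D1:**
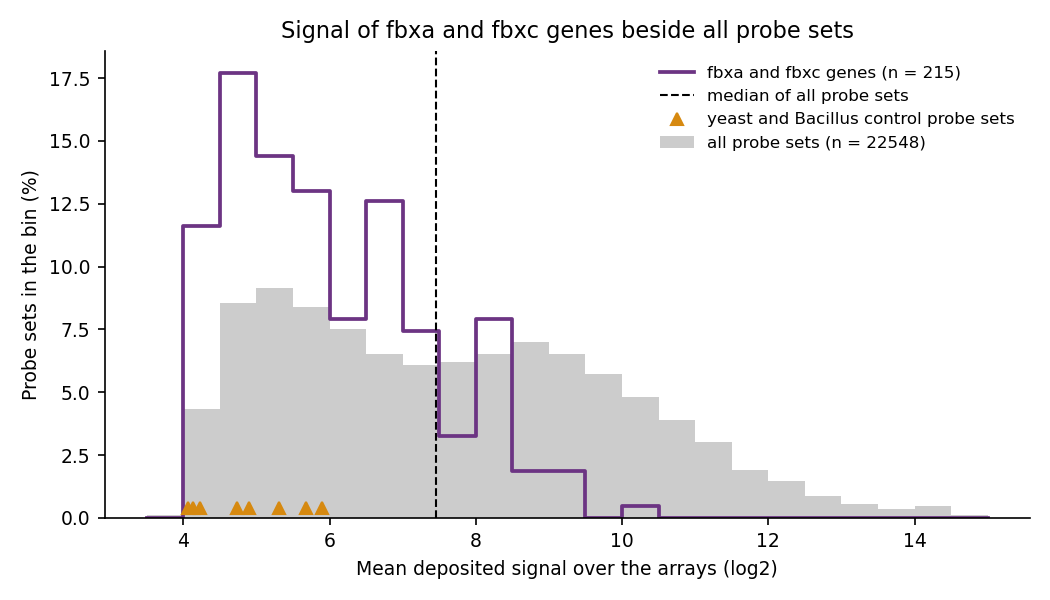
Mean deposited signal over the 9 arrays (log2, horizontal) against the share of probe sets in each bin (vertical), for the 215 fbxa and fbxc genes (line) and all 22548 probe sets (grey). The dashed line is the median of all probe sets, 7.45, and the triangles are the 8 yeast and Bacillus control probe sets; most members lie to the left of the dashed line.

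A few members gave strong signals in every genotype, though the signals of different probe sets do not order the genes. The highest mean was that of fbxa-24, at 10.04, whose probe set is marked by the array's maker for possible cross-hybridisation with related sequences. It read 10.08 ± 0.597 (SD, n = 3) in wild type, 10.17 ± 0.233 in ogt-1(ok430) and 9.87 ± 0.424 in oga-1(ok1207). Fbxa-67 (9.29) and fbxa-156 (8.91) have marked probe sets too, whereas those of fbxa-150 (9.24), fbxa-105 (9.17) and fbxa-157 (9.02) are not marked. The 4 highest fbxc genes were fbxc-54 (8.44), fbxc-40 (8.33), fbxc-57 (8.29) and fbxc-36 (8.27). In all, 21 of the 215 members have a marked probe set and their values are uncertain for that reason. RefSeq classes 172 members as protein coding and 43 as pseudogenes, with median levels of 5.74 and 5.86.

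The level of the median member did not separate the genotypes. The median member read 5.72, 5.84 and 5.81 on the wild-type arrays, 5.70, 5.76 and 5.77 in ogt-1(ok430) and 5.72, 5.78 and 5.80 in oga-1(ok1207). The group means were 5.79 ± 0.0659 (SD, n = 3), 5.75 ± 0.0386 and 5.77 ± 0.0444, so the groups overlapped. The median difference of the members was -0.02 for the ogt-1 mutant against wild type, -0.02 for the oga-1 mutant against wild type and -0.04 between the mutants. Over all probe sets these medians were 0.0023, 0.013 and -0.020. Replicates of a member differed by a pooled within-group SD of 0.129 at the median, against 0.139 over all probe sets. The largest was 0.464, for fbxa-164.

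The first comparison set the ogt-1 mutant, which lacks the enzyme that adds O-GlcNAc, against wild type. The genes fbxa-166, fbxa-189 and fbxa-209 were lower in the ogt-1 mutant, by 1.43 to 1.84-fold, and no fbxc gene was called. A gene was called at an adjusted p under 0.05 in limma, with the Benjamini-Hochberg adjustment over all 22548 probe sets. The called members were 0 of 215 higher and 3 lower (1.40%), where 1.19% of all probe sets were called higher and 1.40% lower, and 2.59% in all. The share of members called lower is thus that of all probe sets. With the replicate number as a block, 2 members (0.93%) were called higher, fbxa-93 and fbxc-57, and 7 (3.26%) lower, these 3 and fbxa-164, fbxa-51, fbxa-54 and fbxa-79. That fit called more probe sets in all, 1.93% higher and 2.66% lower.

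Fbxa-166 (C08E3.9, chromosome II) had the largest fall. It read 7.63, 7.49 and 7.21 in wild type, 6.60, 6.76 and 6.33 in ogt-1(ok430) and 7.05, 6.88 and 6.61 in oga-1(ok1207). All 3 wild-type arrays were above every mutant array. The difference between the ogt-1 mutant and wild type was -0.88 ± 0.15 (SE), or 1.84-fold lower, with a limma adjusted p of 0.0202. The call was lost without wild type replicate 2, ogt-1 mutant replicate 1 or ogt-1 mutant replicate 3, where the adjusted p rose to as much as 0.0970.

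Fbxa-189 (F47H4.9, chromosome V) was low in all groups. Its group means of 5.16, 4.61 and 4.91 lay inside the 4.06 to 5.90 of the yeast and Bacillus control probe sets. It read 5.0, 5.36 and 5.12 in wild type, 4.44, 4.77 and 4.62 in ogt-1(ok430) and 4.94, 4.94 and 4.84 in oga-1(ok1207). The ogt-1 mutant arrays were below all arrays of the other genotypes. The difference was -0.55 ± 0.11 (SE), with a limma adjusted p of 0.0383.

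Fbxa-209 (Y36E3A.1, chromosome V) read 6.37, 6.65 and 6.55 in wild type, 5.99, 5.87 and 6.17 in ogt-1(ok430) and 6.02, 6.14 and 6.23 in oga-1(ok1207). Both mutants lay below wild type and overlapped each other. The difference between the ogt-1 mutant and wild type was -0.51 ± 0.11 (SE), with a limma adjusted p of 0.0412. The calls of fbxa-189 and fbxa-209 each held in 2 of the 9 fits that left out 1 array, without wild type replicate 1 or ogt-1 mutant replicate 2 for fbxa-189, and without wild type replicate 1 or ogt-1 mutant replicate 3 for fbxa-209.

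**Figure D2:**
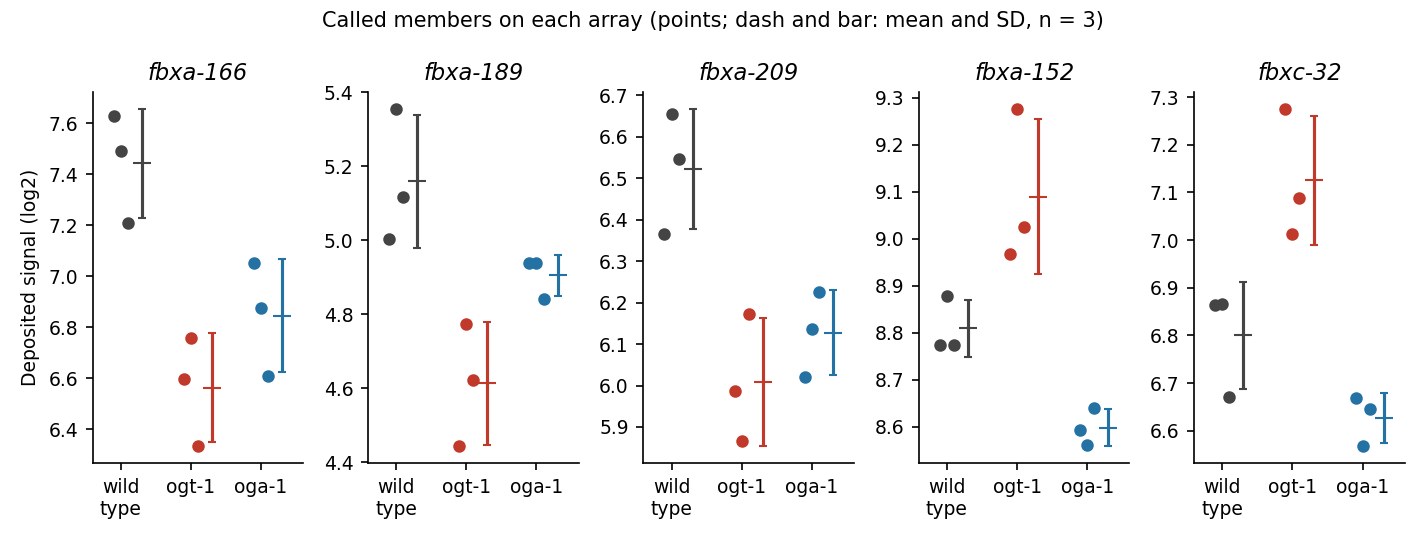
Deposited signal (log2, vertical; each panel has its own scale) of the 5 members called in a comparison, by genotype, with 1 point for each array and the mean and SD (n = 3) beside it. Fbxa-166 and fbxa-209 are lower in both groups of mutant arrays than in wild type, and fbxa-152 and fbxc-32 are higher on the ogt-1 mutant arrays than on the oga-1 mutant arrays.

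The members next in order were not called without the block. Fbxa-54 read 5.64, 6.25 and 6.12 in wild type and 5.23, 5.23 and 5.49 in the ogt-1 mutant, so the groups did not overlap; the difference was -0.69 ± 0.16 (SE) with a limma adjusted p of 0.0528. Without wild type replicate 1, its lowest wild-type array, it was called. Fbxa-93, a pseudogene, read 5.64, 5.76 and 5.87 in wild type and 6.35, 6.02 and 6.27 in the ogt-1 mutant, a difference of 0.46 (limma adjusted p = 0.0602). Fbxa-115 differed by -0.40 (limma adjusted p = 0.0665). Among members that reached the overall median in at least 1 of the groups compared, the largest positive differences were those of fbxc-57 (0.55), fbxc-43 (0.49) and fbxa-124 (0.32). The largest negative ones were those of fbxa-164 (-0.77), fbxa-162 (-0.59) and fbxa-156 (-0.51). Fbxa-164 and fbxa-162 reached that level in wild type only. None of these 6 was called without the block, and the pooled SDs of fbxa-164 and fbxa-162 were 0.464 and 0.429, with wild-type values of 7.19, 7.98 and 7.94 for fbxa-164.

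Below the threshold for calls, more members with a small p were lower than higher. At an unadjusted p under 0.05 there were 27 lower members (12.6%) and 9 higher (4.19%), where 8.95% and 6.83% of all probe sets passed, 15.8% in all. Of the 171 fbxa genes 26 were lower (15.2%) and 5 higher (2.92%). Of the 44 fbxc genes 1 was lower (2.27%) and 4 were higher (9.09%). The 3 wild-type and 3 ogt-1 mutant arrays did not overlap for 42 members, 17 higher (7.91%) and 25 lower (11.6%), against 9.98% and 11.0% of all probe sets. The difference between the groups of genes was not tested. Only 9 members differed by more than 0.5 in size and none by more than 1.

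The counts of such members differed between chromosomes. Of the 45 members on chromosome III, 12 (26.7%) were lower and 1 higher at an unadjusted p under 0.05, with a median difference of -0.13. Among all 2252 measured genes of that chromosome 10.4% were lower, with a median of -0.0063. On chromosome V, 10 of 75 members were lower (13.3%, against 10.3% of all its genes), and on chromosome II, 3 of 57 (5.26% against 8.96%). No member on chromosome III passed the adjusted threshold without the block, whereas fbxa-51, fbxa-54 and fbxa-79, all on III, passed it with the block. The difference between chromosomes was not tested. The 12 genes included fbxa-54, fbxa-79, fbxa-51, fbxa-128 and fbxa-77. Fbxa-128, for example, was 8.23 ± 0.0232 (SD, n = 3) in wild type and 7.77 ± 0.0699 in the ogt-1 mutant, without overlap and with a limma adjusted p of 0.143.

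**Figure D3:**
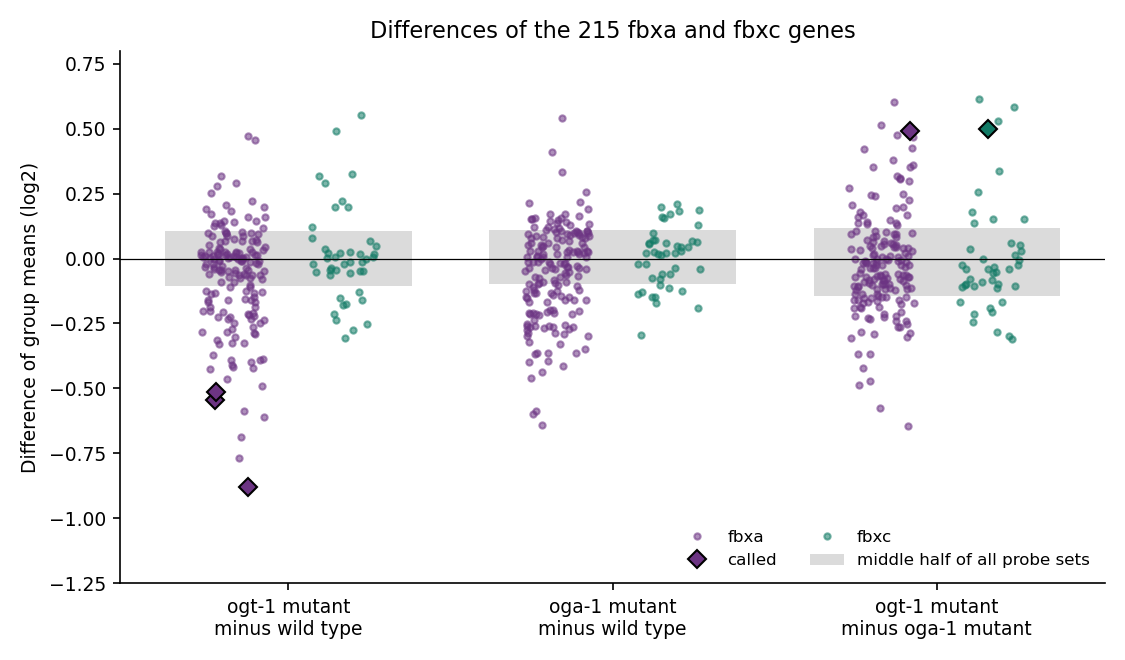
Differences of group means (log2, vertical) of the 171 fbxa and 44 fbxc genes in the 3 comparisons. Each point is 1 gene, a diamond with a black edge is a called gene, and the grey band runs from the lower to the upper quartile of all probe sets; the fbxa points of the ogt-1 mutant against wild type reach down to -0.88 and the highest point of that comparison is fbxc-57 at 0.55.

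Several measures of RNA quality and of other cell types moved with the ogt-1 mutant. For the catalase control, the gap between the probe sets of the 3-prime and 5-prime ends was 0.949 in wild type, 1.74 in ogt-1(ok430) and 1.04 in oga-1(ok1207). The groups ogt-1 mutant and wild type did not overlap in it (two-sided exact permutation p = 0.1, the smallest that 3 against 3 arrays allow). The same gap averaged over actin, GAPDH and ubiquitin was 1.30, 1.43 and 1.22. With that gap as a covariate in limma, none of the members was called, and the differences of fbxa-166, fbxa-189 and fbxa-209 were -0.71, -0.45 and -0.62 (adjusted p = 0.353, 0.454 and 0.229). That fit called 49 probe sets of all.

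The 23 sperm genes (msp) measured had mean levels of 6.79 to 6.94 on the wild-type arrays, 7.0 to 8.07 in ogt-1(ok430) and 7.05 to 7.17 in oga-1(ok1207). None was called, 12 were higher in the ogt-1 mutant at an unadjusted p under 0.05 and the median difference of the 23 was 0.53. All 23 have probe sets marked for possible cross-hybridisation, so these counts can hold a shared signal several times. The 3 intestinal markers averaged 10.21 to 10.39 in wild type, 9.66 to 10.07 in ogt-1(ok430) and 10.06 to 10.29 in oga-1(ok1207). Elt-2, the main transcription factor of the intestine, differed by -0.66 between the ogt-1 mutant and wild type (limma adjusted p = 0.0535). The 5 yolk genes (5.88 to 6.02 in wild type, 5.88 to 6.02 in the ogt-1 mutant) and the 5 early embryo genes held no called gene. The part of RNA quality, sperm genes and intestinal markers in the differences of the members was not tested.

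The second comparison set the oga-1 mutant, which lacks the enzyme that removes O-GlcNAc, against the same 3 wild-type arrays. Without the block no fbxa or fbxc gene was called in limma. Of all probe sets, 0.386% were called higher and 0.111% lower, 0.497% in all. The fit with the replicate number as a block called 2 members (0.93%) lower, fbxa-166 and fbxa-51, and 0 higher. It called 0.528% of all probe sets higher and 0.195% lower. At an unadjusted p under 0.05 without the block, 22 members passed (10.2%), 5 higher and 17 lower. Of all probe sets 11.5% passed, 6.38% higher and 5.14% lower. All 17 lower members were fbxa genes, 9.94% of the 171, and 0 of the 44 fbxc genes were lower. The groups did not overlap for 34 members, 11 higher (5.12%) and 23 lower (10.7%), against 9.41% and 6.66% of all probe sets. Differences ran from -0.64, for fbxa-51, to 0.54, for fbxa-125.

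Without the block, the member with the smallest p was fbxa-186, a pseudogene on chromosome V. It read 6.61, 6.82 and 6.60 in wild type and 6.24, 6.22 and 5.81 in the oga-1 mutant, without overlap, a difference of -0.59 ± 0.13 (SE; limma adjusted p = 0.107). Fbxa-166 differed by -0.60 (adjusted p = 0.167) and fbxa-209 by -0.39 (adjusted p = 0.209) in the same limma fit. For both, all oga-1 mutant arrays were below all wild-type arrays. Fbxa-125 was the member that stood higher: it read 5.27, 5.33 and 5.21 in wild type, 5.74, 6.06 and 5.64 in the oga-1 mutant and 5.54, 5.21 and 4.96 in the ogt-1 mutant. Its difference from wild type was 0.54 ± 0.15 (SE; limma adjusted p = 0.213). Fbxa-199 (-0.37) and fbxa-57 (-0.29) were next by p, also not called.

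Among members that reached the overall median in at least 1 of the groups, none of the largest differences in the oga-1 mutant was called. The positive ones were fbxa-38 (0.22), fbxc-33 (0.17) and fbxa-63 (0.17), and the negative ones fbxa-162 (-0.44), fbxa-107 (-0.40) and fbxa-101 (-0.37). Fbxc-33 and fbxa-63 reached that level in the oga-1 mutant only and fbxa-107 in wild type only. Since the wild-type arrays are shared by these comparisons, a lower value in both against wild type shares the chance values of those arrays.

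Some marker lists differed in the oga-1 mutant too, not all in 1 direction. The 5 yolk genes averaged 6.04 to 6.19 on its arrays, above the 5.88 to 6.02 of wild type. All 5 had a positive difference, with a median of 0.15, 1 passed an unadjusted p under 0.05 and none was called. The 3 body wall muscle markers averaged 12.54 to 12.73, against 12.19 to 12.54 in wild type, and 2 of them passed the unadjusted threshold as higher, with none called. All 23 sperm genes, whose probe sets are all marked, had a positive difference, with a median of 0.21 and none called. At the unadjusted threshold 1 of 3 epidermal markers was higher and 1 lower, and 1 of 3 intestinal markers was lower. Of the early embryo genes 2 of 5 were higher, and 0 of 4 neuronal markers passed. No gene of these 4 lists was called. The part of these markers in the differences of the members was not tested.

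The third comparison set the mutants against each other, which tests whether their differences from wild type are unequal. An fbxc and an fbxa gene, fbxc-32 and fbxa-152, were higher in the ogt-1 mutant than in the oga-1 mutant, each by 1.41-fold, and no member was called lower. The 2 called members are 0.93% of 215, against 1.32% of all probe sets called higher and 1.57% called lower, 2.89% in all. With the replicate number as a block, 6 members (2.79%) were called higher, with fbxa-136, fbxa-146, fbxc-41 and fbxc-57 added, and 2 (0.93%) lower, fbxa-125 and fbxa-164. That fit called 2.30% of all probe sets higher and 2.71% lower.

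Fbxc-32 (C32B5.10, chromosome II), whose probe set is marked, read 6.86, 6.87 and 6.67 in wild type, 7.28, 7.01 and 7.09 in ogt-1(ok430) and 6.67, 6.57 and 6.65 in oga-1(ok1207). The ogt-1 mutant was above both other groups, and the oga-1 mutant was just below wild type. The difference between the mutants was 0.50 ± 0.095 (SE), with a limma adjusted p of 0.0267. Against wild type the differences were 0.33 and -0.17, neither called.

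Fbxa-152 (B0391.11, chromosome V) read 8.77, 8.88 and 8.77 in wild type, 8.97, 9.28 and 9.03 in ogt-1(ok430) and 8.59, 8.56 and 8.64 in oga-1(ok1207). The 3 groups did not overlap at all. The difference between the mutants was 0.49 ± 0.094 (SE), with a limma adjusted p of 0.0270, and the differences from wild type were 0.28 and -0.21, neither called. A second probe set, annotated to fbxa-152 and fbxa-222 together and so kept out of the members, differed by 0.57 ± 0.094 between the mutants (limma adjusted p = 0.0150).

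Neither call held in every fit that left out 1 array. Fbxc-32 was called in 4 of these 9 fits and fbxa-152 in 3, with limma adjusted p-values up to 0.0784 and 0.0772. Both were lost without ogt-1 mutant replicate 3 or any 1 of the oga-1 mutant arrays. Fbxc-32 was also lost without ogt-1 mutant replicate 1, and fbxa-152 without ogt-1 mutant replicate 2 or wild type replicate 3. With the control gap as a covariate neither was called, at 0.49 for fbxc-32 and 0.75 for fbxa-152 (limma adjusted p = 1.00 and 0.253). That fit called 9 probe sets of all between the mutants, against 652 without the covariate. The control gap was 1.31 to 1.51 on the ogt-1 mutant arrays and 1.16 to 1.28 on the oga-1 mutant arrays. Since these do not overlap, the gap and the genotype cannot be told apart between the mutants. The catalase gap of the ogt-1 mutant also lay apart from that of the oga-1 mutant (two-sided exact permutation p = 0.1).

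Not called between the mutants without the block, but nearest to it, were fbxa-124 (0.51, limma adjusted p = 0.0602), fbxa-77 (-0.31, 0.0608), fbxc-57 (0.61, 0.0670) and fbxa-125 (-0.58, 0.0724). Fbxc-57, a pseudogene, read 8.56, 8.63 and 8.85 in ogt-1(ok430) and 7.90, 8.08 and 8.21 in oga-1(ok1207). Its wild-type arrays, at 7.77, 8.38 and 8.22, overlapped the oga-1 mutant only. Fbxc-43 was 0.53 higher, and fbxa-164, fbxa-38 and fbxa-128 were -0.65, -0.49 and -0.37, none called without the block. Fbxc-43 was at or above the overall median in the ogt-1 mutant only and fbxa-164 in the oga-1 mutant only. At an unadjusted p under 0.05, 18 members were higher (8.37%) and 19 lower (8.84%), 17.2% together, against 9.28%, 11.2% and 20.5% of all probe sets. The groups did not overlap for 41 members, 17 higher (7.91%) and 24 lower (11.2%), against 10.3% and 12.6% of all probe sets.

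Many members are neighbours on the chromosomes. RefSeq's WBcel235 annotation, used here for names and gene order only, lists 278 fbxa and fbxc genes, and 175 of them lie in 51 runs of directly adjacent fbxa or fbxc genes. The measured members lie on all 6 chromosomes, 75 on V, 57 on II, 45 on III, 15 on X, 13 on I and 10 on IV, and 123 of them are in such runs. A further 20 probe sets carry an fbxa or fbxc symbol together with others, and 23 fbxa and fbxc genes appear on those alone and are not among the members.

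Fbxa-166 lies in a run of 6 on chromosome II, in the order fbxa-164, fbxa-165, fbxa-166, fbxa-158, fbxa-159 and fbxa-160. Their differences between the ogt-1 mutant and wild type were -0.77, 0.01, -0.88, -0.12, -0.06 and 0.07. Only fbxa-166 was called, and its direct neighbours fbxa-165 and fbxa-158 differed by less than their standard errors of 0.099 and 0.25.

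Fbxa-189 is the last of 5 on chromosome V. The genes fbxa-185, fbxa-186, fbxa-187, fbxa-188 and fbxa-189 gave 0.00, -0.42, -0.13, -0.41 and -0.55 in the same comparison. The gene beyond fbxa-189 is skr-5, which encodes a Skp1-related adaptor and read 7.60, 8.44 and 7.91 in wild type and 5.81, 7.16 and 6.92 in the ogt-1 mutant. Its groups did not overlap, but at -1.35 ± 0.31 (SE) it was not called (limma adjusted p = 0.0551). Fbxa-209 stands next to fbxa-104, which differed by 0.02.

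Fbxc-32 opens a run of 5 on chromosome II. Between the mutants, fbxc-32, fbxc-41, fbxc-57, fbxc-7 and fbxc-6 differed by 0.50, 0.58, 0.61, -0.30 and -0.11. The first 3 were higher in the ogt-1 mutant without overlap. Only fbxc-32 was called without the replicate block, and all 3 were called with it. Fbxa-152 is in a run of 3 with fbxa-154, which is not among the members, and fbxa-153, which differed by 0.01. Over the 72 pairs of directly adjacent members, 57 (79.2%) had differences of the same sign between the mutants, against 55.2% of 13963 pairs of neighbouring measured genes. In the ogt-1 mutant against wild type the shares were 59.7% and 53.2%, and in the oga-1 mutant against wild type 65.3% and 55.7%. Neighbours of 1 family can share probe sequence, and these shares are descriptions with no test.

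**Figure D4:**
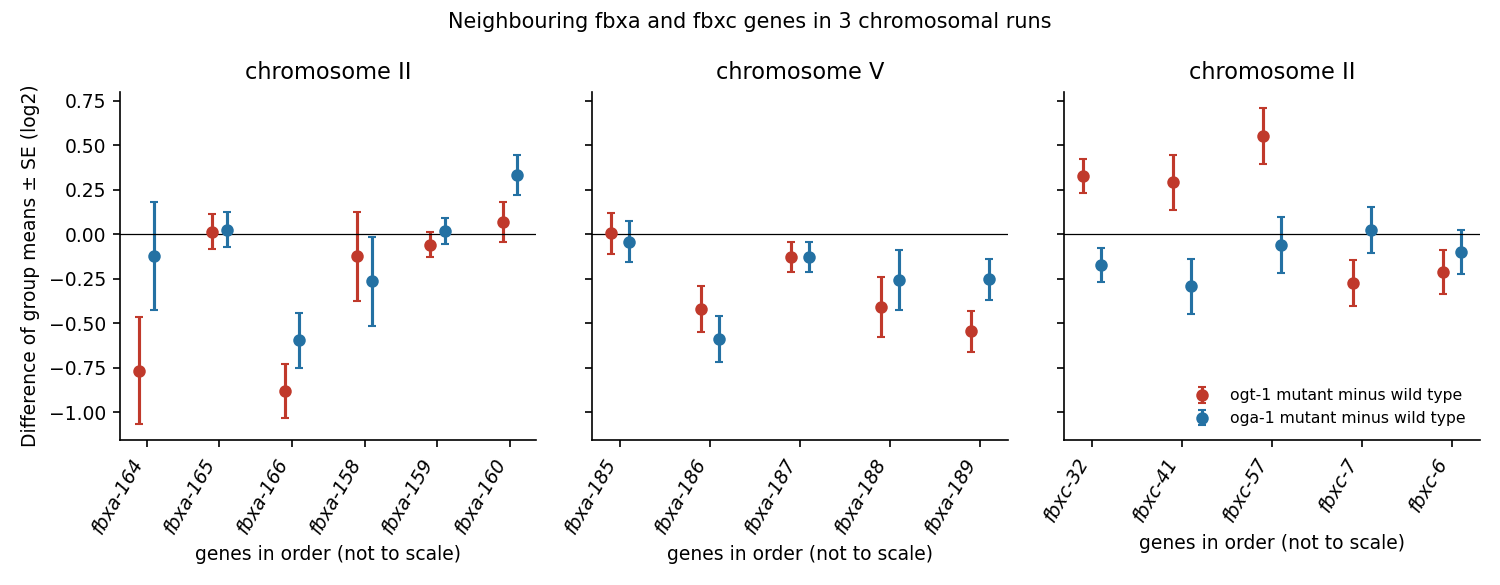
Differences of group means from wild type (log2, vertical, with the standard error of the limma fit) of the genes in 3 runs of adjacent fbxa or fbxc genes, in chromosomal order (horizontal, not to scale), for the ogt-1 mutant and the oga-1 mutant. Fbxa-166 lies between neighbours whose ogt-1 mutant differences are within 1 standard error of 0, whereas fbxc-32, fbxc-41 and fbxc-57 are all above 0 in ogt-1(ok430). In oga-1(ok1207) fbxc-32 and fbxc-41 are below 0, and fbxc-57, at -0.06, is within 1 standard error of 0.

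For 6 members there were 2 probe sets each, and only those of fbxc-51 differed in being called. The brighter, marked probe set gave -0.04 between the mutants. The dimmer one is not marked and read 5.95, 6.02 and 5.60 in ogt-1(ok430) and 6.46, 6.47 and 6.52 in oga-1(ok1207). Its difference of -0.62 ± 0.13 (SE) was called (limma adjusted p = 0.0385), so the result for fbxc-51 depends on the probe set. The call held in 2 of the 9 fits that left out 1 array, without wild type replicate 1 or ogt-1 mutant replicate 2, with limma adjusted p-values up to 0.104. For fbxa-136 both probe sets were higher in the ogt-1 mutant than in wild type, by 0.47 and 0.49, and neither was called. In the same comparison the brighter probe set of fbxa-150 gave 0.03, with overlap, and the dimmer 0.30, without overlap. Those of fbxa-214 gave -0.06 and 0.07. None of these 4 probe sets is marked or was called.

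Fbxa-75, fbxa-158 and fbxa-182 belong to the intracellular pathogen response, a transcriptional programme that worms switch on after infection by microsporidia or the Orsay virus. None of them was called in any of the 3 comparisons. Fbxa-75 read 4.15 to 4.39 over the 9 arrays and fbxa-182, whose probe set is marked, 4.21 to 4.42, both inside the range of the foreign control probe sets. Fbxa-158 read 6.57, 6.81 and 6.76 in wild type, 6.35, 6.39 and 6.61 in the oga-1 mutant and 6.17, 6.29 and 7.31 in the ogt-1 mutant. Ogt-1 mutant replicate 3 was above and the other ogt-1 mutant arrays were below every other array, and without ogt-1 mutant replicate 1 or 2 the difference from wild type turned from -0.12 to 0.08 or 0.03.

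A list of 28 other measured genes was set beside them. It holds the pals genes, taken by name alone, and skr, cul and eol genes, so not each need belong to that response. Of the 28, 2 were lower in the ogt-1 mutant than in wild type and none higher. These were skr-4, at -0.88 ± 0.18 (SE, limma adjusted p = 0.0370), and pals-32, at -0.83 ± 0.16 (SE, limma adjusted p = 0.0311). These are 7.14% of the list, against 1.40% of all probe sets called lower. Against the oga-1 mutant 1 was lower, pals-32 at -0.72 (limma adjusted p = 0.0470). Pals-32 was called in 4 of 9 fits that left out 1 array against wild type, and against the oga-1 mutant in 1 of 9, without ogt-1 mutant replicate 2. The list's median differences were -0.10 against wild type and -0.10 against the oga-1 mutant. None was called between the oga-1 mutant and wild type.

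F-box proteins act through the rest of the SCF complex, and 28 of its 30 listed core genes were measured. Of the Skp1-related adaptors, 3 were lower in the ogt-1 mutant than in wild type, and the other 25 genes, with a median over the list of 0.007, were not called. The 3 are 10.7% of the 28, against 1.40% of all probe sets called lower. Skr-13, whose probe set is marked, read 7.19, 7.38 and 6.99 in wild type, 6.54, 5.93 and 6.26 in ogt-1(ok430) and 6.92, 6.94 and 6.86 in oga-1(ok1207), a difference of -0.94 ± 0.15 (SE; limma adjusted p = 0.0139). Skr-4 and skr-2 followed at -0.88 and -0.67 (both with a limma adjusted p of 0.0370). The call of skr-4 is the one already counted in the list with the pals genes. Skr-13 was called in 8 of 9 fits that left out 1 array, skr-2 in 3 and skr-4 in 1, without wild type replicate 1. With the control gap as a covariate, or in the fit of only 2 groups, none of the 3 was called. Over all alternatives the limma adjusted p reached 0.0939 for skr-13, 0.259 for skr-2 and 0.429 for skr-4.

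No cullin or RING gene was called. Cul-1, the scaffold of the SCF complex, differed by 0.16 ± 0.12 (SE) and rbx-1, the RING protein, by 0.13 ± 0.10. Skr-1, the adaptor with the highest signal, differed by 0.15. Between the mutants, skr-17 (-0.48, limma adjusted p = 0.0378) and skr-13 (-0.66, limma adjusted p = 0.0494) were lower in the ogt-1 mutant. In the fits that left out 1 array, skr-17 was called in 2 of 9, without wild type replicate 1 or 2, and skr-13 in 1 of 9, without ogt-1 mutant replicate 1. No core gene was called between the oga-1 mutant and wild type. None of the 9 measured genes of cullin neddylation and the COP9 signalosome, which switch cullins on and off, was called in any comparison. The same held for 9 F-box genes of other groups, among them lin-23 and sel-10, whose median level was 9.75 and of which 8 were at or above the overall median.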

How the data were processed

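Log2 signals of 22625 probe sets on 9 Affymetrix arrays were used as deposited, in 1 table. MAS5, RMA and Partek are listed in the submitters' processing notes, with no version or role. The sources used here do not give the log base or the summarisation, and log2 was taken from the range of the deposited values, 3.74 to 14.90. Gene symbols came from the platform annotation, and gene names, biotypes and order from RefSeq (WBcel235), in which all 215 members matched by gene ID. The 77 control probe sets were left out, and no filter on low signal was used.

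Differences between genotypes came from lmFit and eBayes of limma 3.58.1, run in R 4.3.3, over 22548 probe sets and all 9 arrays, with a coefficient for each genotype. The fit had 6 residual degrees of freedom plus 3.92 from moderation. The Benjamini-Hochberg adjustment covered all probe sets. Single quality values used two-sided exact permutation tests. The procedure was run on simulated data with independent noise on each array. Those data held no replicate or RNA quality structure, so that run cannot check the calls against either. A limma p-value sets a difference of group means against the moderated spread between arrays called biological replicates. The number of arrays limits the precision.

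Members, lists and the rule for naming genes were chosen with earlier results of these data known. The rule named the called members, those of smallest p up to 6 in a comparison, the 3 largest rises and falls among members that reached the median level of all probe sets in at least 1 of the groups compared, the 6 fbxa and 4 fbxc genes of highest mean, 3 genes of the intracellular pathogen response, members whose probe sets disagree, neighbours of called members and called genes of the other lists. Other genes named, such as those of chromosome III and fbxa-51, were chosen after their values were seen.

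Arrays share replicate numbers across genotypes. Deviations from the group means of same-numbered arrays correlated at 0.192, 0.100 and 0.303 between ogt-1 mutant and wild type and at 0.107, 0.200 and 0.322 between the mutants. Those of arrays of different number correlated at -0.236 to 0.0299 and at -0.252 to 0.0713, below every same-numbered value. Same-numbered arrays were therefore treated as pairs in the fit with the block, and the main fit left this pairing out. Alternatives were array centring, quantile normalization, a low-signal filter, the replicate block, robust moderation, 2 groups only, the control gap as a covariate, leaving out 3 arrays or each array, and other probe sets for a gene.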

Additional observations from a re-analysis of the deposited data

Results flagged for a closer look

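The members fbxa-152 and fbxc-32 differed in their effect between the mutants, by the test of the difference itself. Fbxa-152 was 0.49 higher on the log2 scale in the ogt-1 mutant than in the oga-1 mutant, above wild type in the first and below it in the second, on 3 of 3 arrays each. Fbxc-32 was 0.50 higher, again on 3 of 3 arrays, with a probe set marked for cross-hybridisation. A probe set annotated to both fbxa-180 and C18D4.8, which belongs to no comparison above because it carries 2 symbols, was lower in the ogt-1 mutant than in wild type by a log2 difference of -0.39 (limma adjusted p = 0.0428). It read 5.25, 5.26 and 5.12 in wild type and 4.87, 4.71 and 4.88 in the ogt-1 mutant. That call was lost in each of the 9 fits that left out 1 array.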

How the results depend on the processing

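The number of members called moved with several choices. Fits with the replicate number as a block called, of the members, 2 higher and 7 lower in the ogt-1 mutant against wild type, 2 (0.93%) lower in the oga-1 mutant against wild type, and 6 higher and 2 lower between the mutants. Of all probe sets these fits called 1.93% higher and 2.66% lower, 0.195% lower, and 2.30% higher and 2.71% lower. For oga-1 mutant and wild type the deviations of same-numbered arrays correlated at 0.12, 0.0052 and 0.214, and those of arrays of different number at -0.206 to 0.0426. The labels do not say whether arrays of 1 number were prepared together. The totals over all probe sets that follow count both directions. In the main fit they were 584 in the ogt-1 mutant against wild type and 652 between the mutants. Robust moderation with a trend called 5 members lower in the ogt-1 mutant against wild type, and 594 probe sets of all. With the control gap as a covariate 0 members were called lower there and 0 higher between the mutants. That fit called 49 and 9 probe sets of all in these 2 comparisons. Fits of only 2 groups called 0 members higher between the mutants, and 336 probe sets of all. The next fit left out wild type replicate 1, ogt-1 mutant replicate 1 and oga-1 mutant replicate 3 together. In it 1 member (fbxa-54) was lower in the ogt-1 mutant against wild type and 0 were higher between the mutants. The totals over all probe sets were 262 and 188. With unmarked probe sets only for the members, 1 was higher and 1 lower (fbxc-51) between the mutants, with the total of the main fit. Leaving out 1 array at a time gave 0 to 1 members higher and 0 to 5 lower in the ogt-1 mutant against wild type. Between the mutants it gave 0 to 3 higher and 0 to 1 lower. Over all probe sets these fits called 138 to 533 and 255 to 803, so the totals moved as well. A filter at the lower quartile of level gave median differences of -0.106 (oga-1 mutant against wild type) and 0.0302 (between the mutants), and 12 in place of 36 members at or above the median level, since the filter itself raises that median. It kept 110 members and called 2 of them lower in the ogt-1 mutant against wild type, fbxa-166 and fbxa-209. Over all probe sets it called 582 there. The signal of fbxa-189 lay below the filter. Small differences of uncalled genes turned in sign. Fbxa-104 (ogt-1 mutant against wild type) gave -0.0252 with the covariate and -0.0358 to 0.0815 over the fits without 1 array, lowest without ogt-1 mutant replicate 3. Fbxa-158 gave 0.0114 without the 3 arrays and -0.486 to 0.0846 without 1 array, with 0.027 without ogt-1 mutant replicate 2. Fbxa-165 gave -0.0914 and -0.0855 to 0.101. Fbxa-182 (oga-1 mutant against wild type) gave -0.0208 with quantile normalization, -0.0413 with the covariate and -0.0187 to 0.0325 without 1 array, with -0.0088 without wild type replicate 3. Apart from the construction of the filter, the causes were not tested. Of the values of single genes under an alternative, 1079 kept their direction and side of the threshold, 178 lost the call, 22 gained it and 11 changed sign. Most of these values belong to genes that were not called in the main fit and so had no call to lose. The tally therefore does not measure how stable the calls are, and the 178 losses all come from the fewer called results.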

Other observations

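In other families of substrate adaptors, 1 of 95 fbxb genes (1.05%) and 3 of 38 bath genes (7.89%) were called between the mutants, against 2.89% of all probe sets. The fbxb genes, a further group of F-box genes, had a median level of 5.0 on the log2 scale and none reached the overall median. One of them, fbxb-77, was lower in the ogt-1 mutant than in the oga-1 mutant, by -0.46 (limma adjusted p = 0.0331). It read 5.71, 5.81 and 5.85 in the ogt-1 mutant and 6.09, 6.31 and 6.34 in the oga-1 mutant, without overlap. The bath genes encode proteins with BTB and MATH domains, a kind of protein that recruits substrates to cullin 3. Of 38 measured, bath-26 was lower in the ogt-1 mutant than in wild type, by -1.12 ± 0.23 (SE; limma adjusted p = 0.0372), and than in the oga-1 mutant, by -1.04 (limma adjusted p = 0.0448). It read 6.29, 6.93 and 7.0 in wild type, 5.15, 5.96 and 5.76 in the ogt-1 mutant and 6.83, 6.49 and 6.67 in the oga-1 mutant. Between the mutants bath-10 was also lower (-0.38, limma adjusted p = 0.0330), and bath-38, with a marked probe set, was higher (0.67, limma adjusted p = 0.0284). Of the 9 fits that left out 1 array, bath-26 was called in 2 in each comparison, and between the mutants fbxb-77 was called in 2, bath-10 in 3 and bath-38 in 4.

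Identical deposited values recur among the members. Of the members, 100 (46.5%) had exactly the same deposited value on 2 or more of the 9 arrays, and 34 (15.8%) on 3 or more. Over all probe sets the shares were 37.5% and 13%. Fbxa-165, for instance, had 1 value on 3 arrays.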
